A study of Homo sapiens with 4 samples.

Results

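GATA3 binding around 6 forkhead transcription factor genes was described: FOXQ1, FOXF2 and FOXC1, which lie together on chromosome 6, and FOXF1, FOXC2 and FOXL1, which lie together on chromosome 16. A position of GATA3 binding was taken for these genes when it lay within 200 kb of the 5′ end of one of them in hg38, or when the authors had written the gene's symbol beside it. No measured level entered this rule, but the genes themselves were chosen with earlier results of these data known. The 6 genes are 6 of 20033 protein-coding genes, and the positions taken were 10 of 18456 in replicate 1 and 8 of 12782 in replicate 2. H1 human embryonic stem cells (hESCs), an established pluripotent line, had received BMP4 in mTeSR1 medium at 50 ng/ml for 6 h before an antibody was used to pull down GATA3 with its chromatin for sequencing (ChIP-seq). The 4 samples of the series were 2 GATA3 ChIP replicates and 2 input chromatin samples, all from BMP4-treated cells. The peaks of both ChIP replicates were used, and input entered only through the authors' peak calling. Each file gave 1 base position per peak, with no height, width or score, so a position was present or absent and could not be ranked. GATA3 ChIP of untreated cells and RNA levels were not analysed here, so neither a change with BMP4 nor the markers of the cell type could be examined.

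Forkhead proteins bind DNA through a winged-helix domain and specify many embryonic tissues. FOXC1 and its paralog FOXC2 act in mesoderm, blood vessel and eye development. FOXF1 and its paralog FOXF2 act in lateral and splanchnic mesoderm and in the mesenchyme of gut and lung. FOXL1 is a gene of the gut mesenchyme, and FOXQ1 acts in epithelia and hair. The clusters are thought to descend from a single ancestral group of forkhead genes. GATA3, a zinc finger factor induced by BMP4 in hESCs, recognises short sequences with GATA at their core. The question was whether GATA3 lay near these developmental genes early in BMP4-driven differentiation, and whether the paralogous clusters were bound alike.

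In the chromosome 6 cluster, GATA3 lay at the promoter of FOXF2 and at several sites around FOXC1. In the chromosome 16 cluster, it lay only far upstream of FOXF1. The chromosome 6 genes are all on the plus strand, with 5′ ends at 1312098 (FOXQ1), 1389576 (FOXF2) and 1609915 (FOXC1). The chromosome 16 genes are on the plus strand too, with 5′ ends at 86510527 (FOXF1), 86566829 (FOXC2) and 86576368 (FOXL1). The windows around each set of 3 genes joined into 1 interval, of 698 kb on chromosome 6 and 466 kb on chromosome 16. A pair of replicate positions no more than 100 bp apart was called a shared region. By that definition there were 4 shared regions in the chromosome 6 interval and 2 in the chromosome 16 interval. A further 2 places on chromosome 6 had a position in each replicate, but 106 and 172 bp apart. Another 2 had a position in replicate 1 alone.

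**Figure D1:**
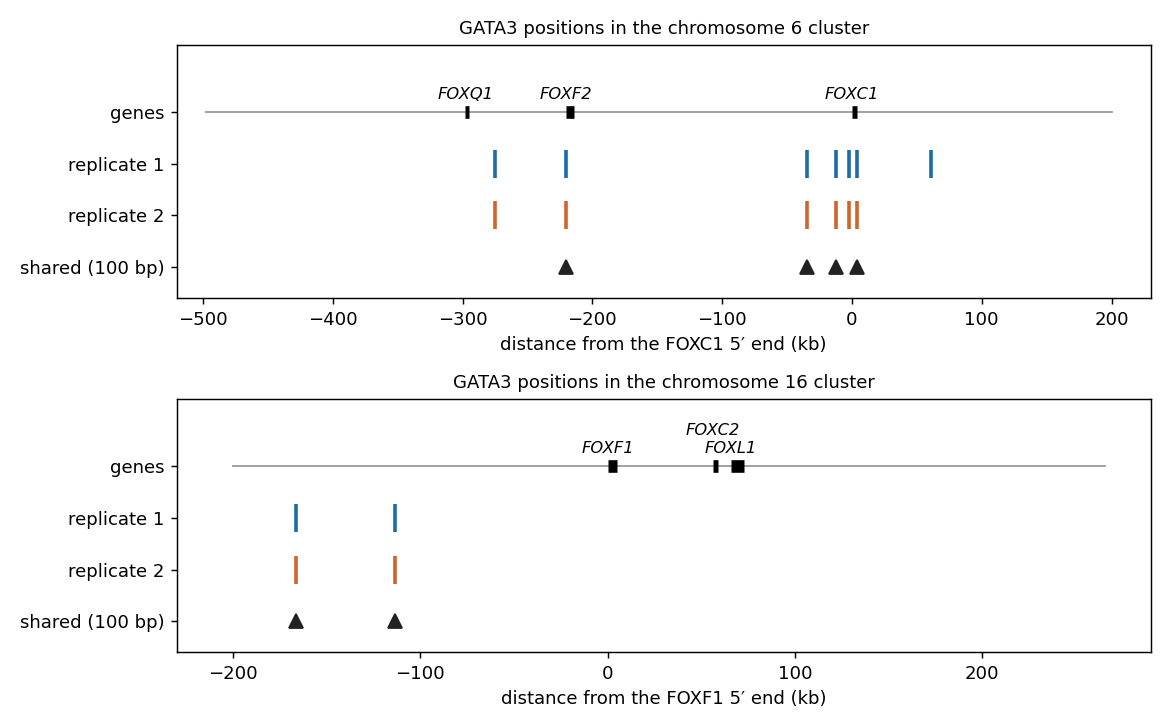
Positions of GATA3 peaks in each replicate and shared regions (triangles) along the chromosome 6 interval (top) and the chromosome 16 interval (bottom), with distance from the 5′ end of FOXC1 or FOXF1 in kb on the horizontal axis; black blocks are the member genes. Of the 4 shared regions on chromosome 6, 1 is at FOXF2 and 3 are around FOXC1, while the 2 on chromosome 16 lie 113 and 167 kb upstream of FOXF1.

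The DNA under 4 of the shared regions is shown as 200 bp windows of the hg38 plus strand, 5′ to 3′, because it shows the GATA sites of each place in their context. Capitals mark GATA sites, which are AGATAA or AGATAG or TGATAA or TGATAG, or the reverse complement of one of these. The window upstream of FOXF2 (chr6:1389333-1389532) is the only one of these at a promoter. The window 34.8 kb upstream of FOXC1 is chr6:1575060-1575259, and that 12.6 kb upstream is chr6:1597253-1597452. The window 113 kb upstream of FOXF1 is chr16:86397154-86397353.
FOXF2 promoter: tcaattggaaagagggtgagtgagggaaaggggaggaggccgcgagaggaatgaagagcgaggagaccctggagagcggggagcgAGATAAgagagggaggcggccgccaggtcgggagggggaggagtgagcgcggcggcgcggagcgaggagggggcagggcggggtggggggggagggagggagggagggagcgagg
FOXC1 upstream, far: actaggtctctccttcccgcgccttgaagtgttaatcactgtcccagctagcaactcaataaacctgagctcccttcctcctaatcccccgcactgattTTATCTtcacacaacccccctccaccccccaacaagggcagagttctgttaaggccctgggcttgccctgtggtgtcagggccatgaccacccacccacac
FOXC1 upstream, near: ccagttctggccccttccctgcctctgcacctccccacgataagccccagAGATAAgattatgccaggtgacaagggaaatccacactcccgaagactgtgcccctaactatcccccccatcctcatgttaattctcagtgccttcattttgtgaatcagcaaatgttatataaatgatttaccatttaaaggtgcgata
FOXF1 upstream, 113 kb: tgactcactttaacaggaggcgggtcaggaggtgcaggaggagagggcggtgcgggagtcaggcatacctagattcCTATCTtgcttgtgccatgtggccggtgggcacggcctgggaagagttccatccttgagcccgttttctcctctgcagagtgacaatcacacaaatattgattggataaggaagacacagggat

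FOXF2 had the closest binding of the 6 genes. Both replicates gave position 1389432, a gap of 0 bp, which is 144 bp upstream of the FOXF2 5′ end and outside any annotated gene. A gap of 0 bp was found in 1.15% of shared pairs over the whole series, whose median gap was 23 bp. The authors' files named FOXF2 beside this position in both replicates. A shared region no more than 1 kb from the 5′ end was present at 2.42% of all protein-coding genes, and FOXF2 was the 1 member of 6 that did. A region as near as that of FOXF2 was found at 0.429% of protein-coding genes. The window has 1 GATA site, the AGATAA at 1389418 to 1389423, whose middle is 11.5 bp from the position. This window was rich in GC, at 70.5%, a level reached by 0.601% of all shared regions, whose median was 44% and whose upper quartile was 48.5%. It also held 16 CpG dinucleotides, 1 GC box (GGGCGG) and 1 TEAD consensus (GGAATG).

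The promoters of the other members were compared with that of FOXF2 over 250 bases before to 50 bases after each 5′ end. RefSeq promoter sequences (GRCh38.p14) matched 3 of the 6 members, all on chromosome 6. FOXF2 had 1 GATA site in that stretch, and FOXC1 and FOXQ1 had 0. Of the 27305 promoters in that table, 25.9% held a GATA site and 10.7% held AGATAA. The GC content of the 3 promoters was alike, at 71.0% for FOXF2, 72.7% for FOXC1 and 74.7% for FOXQ1. Read from hg38 at the GENCODE 5′ ends, the promoters of FOXF1 and FOXC2 held 0 GATA sites and that of FOXL1 held 1, against 21.9% of 20033 protein-coding promoters with at least 1. FOXL1 had no GATA3 position at its promoter in either replicate, so a GATA site was present at a promoter with a position and at 1 without. For FOXL1 this stretch was set at the GENCODE gene end, 86576368. Its canonical transcript starts farther downstream, at 86578549, and the sequence there was not searched for GATA sites.

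FOXC1 had the most binding of the 6 genes. Within 50 kb of its 5′ end there were 3 shared regions, and 4 positions in each replicate. At least 3 shared regions within 50 kb were found at 0.958% of protein-coding genes (192 of 20033). FOXC1 was also 1 of the genes the study followed by GATA3 ChIP-qPCR, a choice that may have been made on these libraries. The paper describes that binding as at promoters. Here FOXC1 had no shared region within 1 kb of its 5′ end, and its nearest was 3.86 kb downstream. As printed in the supplement, 1 primer of the pair listed for the FOXC1 promoter has its reverse complement in that downstream region. What the assay amplified was not tested. Within 200 kb it had 3 shared regions, a number that 15.6% of protein-coding genes reached, with 5 positions in replicate 1 and 4 in replicate 2. All 3 were within 50 kb, 2 of them upstream of the gene and 1 inside it.

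Of the 3 shared regions of FOXC1, 2 were upstream and intergenic. The farther was at 1575155 in replicate 1 and 1575163 in replicate 2, 8 bp apart and 34.8 kb upstream. Its only GATA site, TTATCT on the plus strand (AGATAA on the minus strand), spans 1575159 to 1575164, and the position of replicate 2 falls inside it. The nearer was at 1597312 and 1597392, 80 bp apart and 12.6 kb upstream, a gap reached or exceeded by 4.94% of shared pairs in the series. A GATA site lay close to the position of replicate 1 only. Replicate 1 was 6.50 bp from the AGATAA at 1597303 to 1597308, and replicate 2 was 79.5 bp from the nearest GATA site, another AGATAA at 1597469 to 1597474. Both regions carried the authors' name FOXCUT, a long noncoding RNA gene that starts upstream of FOXC1, on the same strand. With shared regions defined within 50 bp, the nearer of these was lost and the chromosome 6 interval held 3.

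The third shared region of FOXC1 was in the 3′ untranslated region of the gene itself. Its positions were 1613781 and 1613772, 9 bp apart and 3.86 kb downstream of the 5′ end. The window held 3 GATA sites, a number that 8.78% of all shared regions reached, and all 3 were within 20 bp of the centre. They are the AGATAA at 1613761 to 1613766 and a CTATCT at 1613779 to 1613784 and at 1613792 to 1613797. The middle one is shown in 26 bases (chr6:1613769-1613794), with capitals for the site that lay 0.5 bp from the position of replicate 1.
FOXC1 3′ end: cagtttcctgCTATCTgccgctccta

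Immediately upstream of FOXC1, a place was called in both replicates but not at the same base. The position was 1607947 in replicate 1, 1.97 kb upstream of the 5′ end, and 1607775 in replicate 2, 2.14 kb upstream, so they were 172 bp apart and were not counted as shared. The authors named FOXC1 beside both. Replicate 1 was 20.5 bp from a TGATAA at 1607965 to 1607970, which is shown in 26 bases (chr6:1607955-1607980), and the 200 bp around the position of replicate 2 held 0 GATA sites. It was the only position of these genes without one.
FOXC1 upstream, 1.97 kb: ccaggcgggcTGATAAgaccttcagg

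Replicate 1 alone had 2 further positions given the name FOXC1 by the authors. At 1670719, 60.8 kb downstream of the FOXC1 5′ end, the position fell in an intron of GMDS, which encodes an enzyme of GDP-fucose synthesis and is transcribed toward FOXC1. It lay 2.5 bp from the middle of an AGATAA. At 1916918, the position was 307 kb downstream, also in an intron of GMDS, and 17.5 bp from an AGATAA. This one lay outside every window and was taken by its name only. The nearest positions of replicate 2 were 56947 and 245032 bp away. Their windows had the lowest GC content of the 10 places, at 36.0% and 35.0%.

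FOXQ1 had no shared region within 50 kb. Its nearest was the one at the FOXF2 promoter, 77.3 kb downstream, and 37.6% of protein-coding genes had a region at least as near. A pair of positions lay closer, at 1335011 in replicate 1 and 1334905 in replicate 2, 22.9 and 22.8 kb downstream of FOXQ1. They were 106 bp apart, just past the limit for a shared region, and each had its own GATA site. Replicate 2 was 7.50 bp from a TGATAG at 1334895 to 1334900, and replicate 1 was 59.5 bp from an AGATAA at 1335068 to 1335073. The sites are shown with 10 bases on each side (chr6:1334885-1334910 and chr6:1335058-1335083). The authors named LINC01394, a noncoding RNA gene beside FOXQ1, at this place. The symbol FOXQ1 stood beside 0 positions in either file.
FOXQ1 downstream, replicate 2: gatcccacagTGATAGgcgccacaaa
FOXQ1 downstream, replicate 1: gagttttcacAGATAAaaatctttct

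On chromosome 16, GATA3 was found at 2 places, each in both replicates. The first lay 167 kb upstream of FOXF1, in an intron of the noncoding RNA gene LINC00917, and its replicate positions were 13 bp apart. Its window held 2 GATA sites, a number that 34.6% of all shared regions reached. The nearer of them lay 4.50 bp from the position of replicate 1 and 8.50 bp from that of replicate 2. The second place was at 86397268 in replicate 1 and 86397239 in replicate 2, 29 bp apart, intergenic and 113 kb upstream of FOXF1. It held 1 GATA site, the CTATCT at 86397230 to 86397235, which was 35.5 bp from the position of replicate 1 and 6.50 bp from that of replicate 2. It also held 1 AP-1 consensus (TGACTCA or TGAGTCA) and 1 GC box. The authors gave these places the names of noncoding RNA genes. The symbols FOXF1, FOXC2 and FOXL1 stood beside 0 positions in either file.

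The 3 genes of chromosome 16 lay in a stretch of 404 kb, from 86397268 to 86801107, without a position in either replicate. FOXF1, FOXC2 and FOXL1 therefore had no position of either replicate within 100 kb, which was true of 3 of 6 members and of 29.3% of protein-coding genes. The stretch also held MTHFSD, the only other protein-coding gene to start in the interval. Stretches at least that long were 4.76% of those between neighbouring positions on the chromosomes, and took up 35.3% of the sequence between positions. Assembly gaps were not taken out of these lengths, so the 35.3% includes sequence that could hold no position. The nearest shared region was 113 kb from FOXF1, 170 kb from FOXC2 and 179 kb from FOXL1, all upstream, and 48.7%, 62.2% and 64.0% of protein-coding genes had one at least as near. The nearest positions outside the windows were a pair at 1104606 and 1104454, 207 and 208 kb from FOXQ1, and a pair at 86801124 and 86801107, 225 kb from FOXL1. The farthest shared positions inside were those 167 kb from FOXF1.

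**Figure D2:**
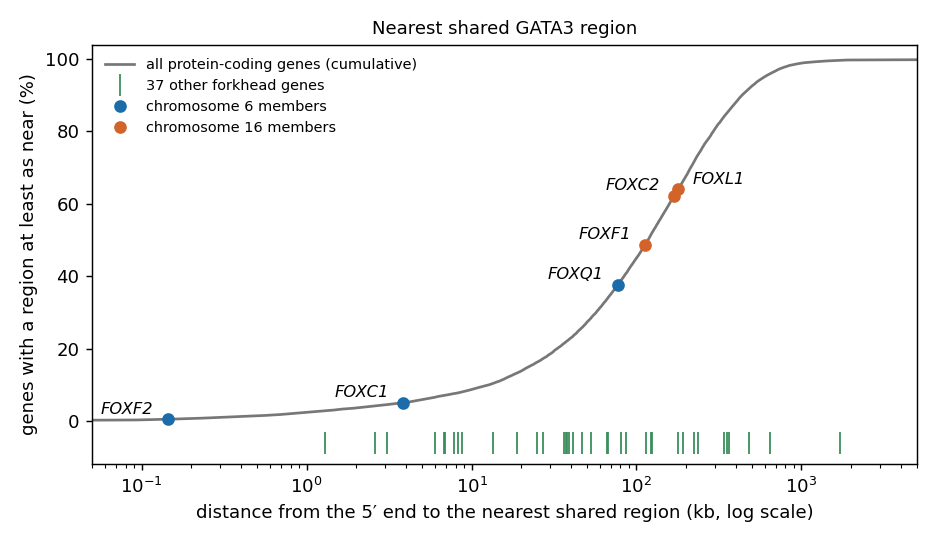
Distance in kb (log axis) from the 5′ end to the nearest shared region against the percentage of protein-coding genes with a region at least as near (grey curve); points are the member genes and green ticks at the bottom the 37 other forkhead genes. FOXF2 (0.429%) and FOXC1 (5.04%) stand at the near end of the curve, FOXQ1 at 37.6%, and the 3 chromosome 16 genes between 48.7% and 64.0%.

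Counted over the full 200 kb, the members were like other genes. All 6 had at least 1 shared region within 200 kb, as did 67.7% of protein-coding genes, and the windows of neighbouring members overlap, so these were not 6 separate observations. FOXC1 had 3, FOXF2 and FOXF1 had 2, and FOXQ1, FOXC2 and FOXL1 had 1, beside a median of 1.00 and an upper quartile of 2.00 over all protein-coding genes. The 2 regions of FOXF2 were that at its promoter and the farther one upstream of FOXC1. The regions of FOXC2 and FOXL1 were the same one, 113 kb upstream of FOXF1. Replicate 1 taken alone gave 5 positions for FOXC1 and 2 for FOXQ1, and replicate 2 gave 4 and 2. Within 50 kb, 2 of the 6 members had a shared region, FOXF2 and FOXC1, and 27.2% of protein-coding genes did.

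**Figure D3:**
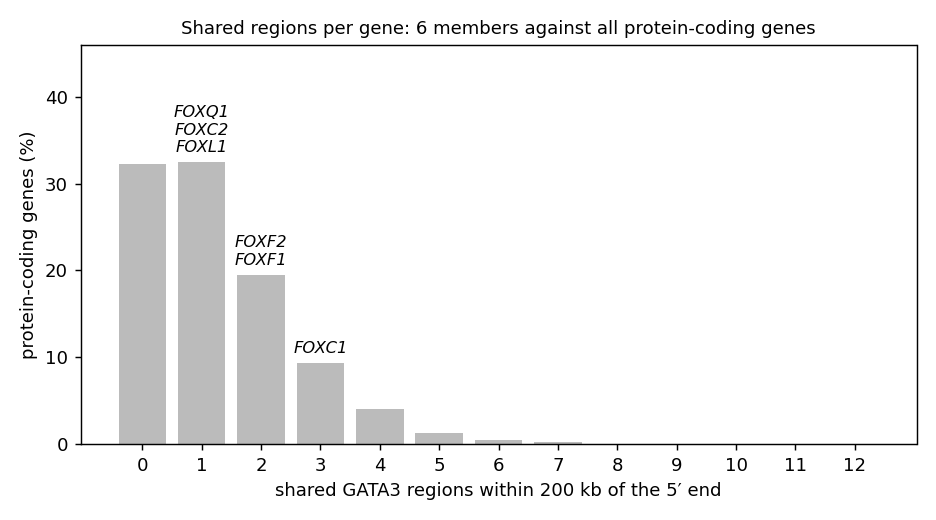
Percentage of the 20033 protein-coding genes (vertical axis) with each number of shared regions within 200 kb of the 5′ end (horizontal axis), with the member genes written above the bar of their own number. FOXQ1, FOXC2 and FOXL1 are at 1, FOXF2 and FOXF1 at 2, and FOXC1 at 3.

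The clusters were then compared by the density of binding, since the chromosome 6 interval is the longer. Shared regions numbered 5.73 per Mb on chromosome 6 (4 regions) and 4.29 per Mb on chromosome 16 (2 regions), a difference of 1.44 per Mb. The ratio was 1.34, with a 95% exact interval of 0.191 to 14.8 (exact two-sided conditional binomial test, p = 1.00). For replicate 1 the densities were 10.0 and 4.29 positions per Mb (7 and 2 positions), a ratio of 2.34 (interval 0.445 to 23.1, exact p = 0.331). For replicate 2 they were 8.60 and 4.29 per Mb (6 and 2 positions), a ratio of 2.00 (interval 0.358 to 20.3, exact p = 0.489). The whole chromosomes had 3.66 shared regions per Mb for chromosome 6, 2.62 for chromosome 16 and 3.11 for the 24 chromosomes together. No difference in density was detectable with so few positions, and the intervals reach from a far lower to a far higher density on chromosome 6. These tests and intervals cover counting error over positions, which can lie in clumps, and not the spread between samples.

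With windows of 50 kb around each gene, the chromosome 16 cluster was empty. The chromosome 6 cluster still held its 4 shared regions, 14.4 per Mb above chromosome 16 (exact p = 0.304), and 6 positions in each replicate, 21.6 per Mb above (exact p = 0.0904). With windows of 100 kb, where chromosome 16 was empty too, the difference was 8.38 per Mb for shared regions (exact p = 0.304), 14.7 for replicate 1 positions (exact p = 0.0553) and 12.6 for replicate 2 positions (exact p = 0.0949). None of these passed 0.05, and against a count of 0 the difference could take only 1 direction.

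The replicates were compared within each cluster, because only peaks found in both were carried forward in the study. On chromosome 6, 4 of 8 positions of replicate 1 were shared (50.0%, 95% Wilson interval 21.5 to 78.5) and 4 of 6 of replicate 2 (66.7%, 30 to 90.3). On chromosome 16, 2 of 2 positions were shared in each replicate (100%, 34.2 to 100). The share did not differ detectably between the clusters (two-sided Fisher's exact p = 0.467 for replicate 1, where the smallest possible value was 0.133, and p = 1.00 for replicate 2). In the whole series 49.6% of replicate 1 positions and 71.5% of replicate 2 positions were shared, inside the intervals of the chromosome 6 cluster. Of all replicate 2 positions, 9.80% had their nearest replicate 1 position more than 100 and up to 500 bp away, as did 2 of the 6 on chromosome 6.

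GATA sites were present at every shared region of both clusters. All 4 windows on chromosome 6 and both on chromosome 16 held at least 1, beside 82.0% of the 9145 shared regions in the series. In the rest of the same interval, 200 bp windows laid end to end and more than 500 bp from any position held a GATA site in 29.4% of 3445 cases on chromosome 6 (95% Wilson interval 27.9 to 30.9) and 24.9% of 2317 on chromosome 16 (23.2 to 26.7). The difference had a two-sided Fisher's exact p of 0.00750 on chromosome 6, which was 0.06 after Benjamini-Hochberg adjustment over the 8 tests made, and 0.0623 on chromosome 16 (adjusted 0.249). Each was the smallest value that 4 and 2 windows allow. Of the 8 tests, 0 passed an adjusted 0.05, and some could not have passed with these counts. Every shared region of both clusters held a site, so the Fisher's exact test of that share between clusters could show no difference. The Fisher's exact test of shared replicate 1 positions could not fall below 0.133, nor that of GATA sites on chromosome 16 below 0.0623. AGATAA, the strictest form, was in all 4 windows on chromosome 6 and 1 of 2 on chromosome 16 (Fisher's exact p = 0.333). That is the smallest value these counts allow, so the test could not show a difference. AGATAA was in 51.6% of shared regions in the series and in 11.0% and 9.50% of the remaining windows.

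Positions sat close to their GATA sites. Of the 10 positions of replicate 1, 7 had the middle of a site within 20 bp, and 10 had a site in their 200 bp. Of the 8 of replicate 2, 6 had a site within 20 bp and 7 had one in their 200 bp. Over all positions of the series, a site within 20 bp was found at 34.0% in replicate 1 and 36.7% in replicate 2, and a site in 200 bp at 77.3% and 77.5%. The positions came from 10 places, so most sites were counted once in each replicate.

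**Figure D4:**
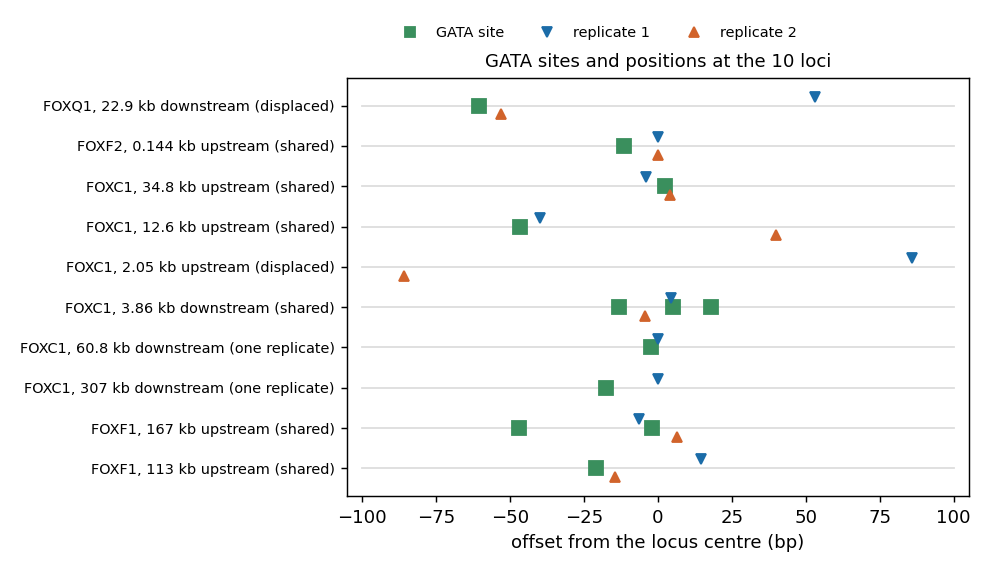
Offset in bp of GATA sites (squares, middle of the site) and of the replicate positions (triangles) from the centre of each of the 10 places, in 200 bp windows; the labels give the nearest member gene, the distance from its 5′ end and whether the place was shared, displaced by more than 100 bp between replicates, or found in 1 replicate. At 9 of the 10 places at least 1 site falls in the window, and 8 of the 12 sites lie within 20 bp of the centre.

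Of the other motifs searched, the forkhead and octamer sequences were absent from these places. The forkhead consensus GTAAACA was at 0 of the 10 places, and at 4.28% of all shared regions and 2.82% and 2.29% of the remaining windows of the chromosome 6 and chromosome 16 intervals. The octamer ATGCAAAT, read by POU factors, was also at 0 of 10 and at 5.10% of shared regions. With 10 places such rates would give few or no matches. The SMAD element GTCTG was at 3 places on chromosome 6 and 1 on chromosome 16, beside 36.1% of shared regions and 31.9% and 35.1% of the remaining windows. The TEAD consensus was at 2 places on chromosome 6 and 0 on chromosome 16, beside 18.9% of shared regions. The reversed GATA sequence, AATAGA or AATAGT or GATAGA or GATAGT, was searched as a control of base composition. It was at 3 places on chromosome 6 and 0 on chromosome 16, beside 32.6% of shared regions and 26.0% and 20.5% of the remaining windows. These counts of places include those that were not shared, unlike the shares beside them. At shared regions alone, the SMAD element was at 1 on chromosome 6 and 1 on chromosome 16. The TEAD consensus and the reversed GATA sequence were each at 1 and 0. Motifs were counted on both strands, AGATAA is contained in the GATA set, and GATAGA can overlap a GATA site.

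The bound windows were also aligned between the clusters. None of the 8 windows of 400 bp on chromosome 6 aligned to the chromosome 16 interval, and neither of the 2 on chromosome 16 aligned to the chromosome 6 interval (blastn, e-value limit 0.001). Windows without a position were not aligned, so this count has no background. FOXC1 and FOXC2 differed in their nearest binding, 3 shared regions within 50 kb against 0. FOXF2 and FOXF1 differed too, with a shared region 144 bp upstream in the former and none within 100 kb in the latter. These are values of 1 pair of genes each, with no test.

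The rest of the family is given for comparison, with 37 other forkhead genes. A shared region within 50 kb was found at 19 of them (51.4%), and within 200 kb at 29 (78.4%), beside 27.2% and 67.7% of protein-coding genes. The median number within 200 kb was 2.00. None of the 37 had 3 or more shared regions within 50 kb, as FOXC1 did, or a region within 1 kb, as FOXF2 did. The limit of 3 was the number of FOXC1 itself. Only counts within 200 kb were planned for this list, so these contrasts are a description and not a test. Within 200 kb, 7 of the 37 had at least 4 shared regions, against 3 at FOXC1. The 3 regions of FOXC1 include the pair of positions 80 bp apart. With a limit of 50 bp for a shared region, FOXC1 had 2 within 200 kb. The nearest region in the list lay 1.29 kb upstream of FOXJ3. The most regions within 200 kb were at FOXE3 and FOXI3, with 6 each, more than at FOXC1, and 8 genes had 0, the farthest region being 1712 kb from FOXR2. Among the 6 members, the 3 of chromosome 16 were each farther from a region than the list's median distance of 46.8 kb, as was FOXQ1.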

How the data were processed

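Per the labels and the published methods, 75 bp single-end reads were stripped of adapters (cutadapt) and placed on hg38 (bowtie). The authors dropped duplicates (Picard), multiply mapped reads and blacklisted regions, and called peaks with MACS2 at q 0.05 in each of the 2 biological replicates against its own input. Each deposited file lists a single base for every peak, with the name of a gene. The number of positions in each file differs from the number of peaks in the published methods, higher in replicate 1 and lower in replicate 2, for a reason not found. How a peak became 1 base, and whether bases were counted from 0 or 1, was not given in the sources used here, so offsets carry at least 1 bp of uncertainty. Read depth could not be derived.

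Distinct positions on the 24 chromosomes were joined to hg38 sequence and to GENCODE release 44. The 5′ end was that of the GENCODE gene. Density was tested by the exact conditional binomial test, shares by Fisher's exact test (two-sided, Benjamini-Hochberg over 8 tests). Python 3.11.15, scipy 1.17.1, statsmodels 0.14.6, pysam 0.24.0 and blastn 2.17.0 were used, and the scripts were tested on simulated data. Genes named are the 6 members, genes that hold a position or whose name the authors gave to one, and the other forkhead genes with the most and fewest regions. MTHFSD and FOXJ3 were named after their values were seen. The sequence of 1 region is not reported here. The members and lists were chosen with earlier results of these data known.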

Additional observations from a re-analysis of the deposited data

How the results depend on the processing

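Alternatives changed 1 setting at a time: the distance for a shared region (50, 250 and 500 bp), the gene window (50 and 100 kb), the motif window (100 and 400 bp), AGATAA, canonical transcript starts and each replicate alone. Counting only positions in the windows was chosen after seeing the data. Some values had little room to move. Only FOXL1 has a canonical start that differs from its gene end, and some tests could not reach 0.05 with these counts. Of 87 values, 79 stayed on their side of an unadjusted 0.05 or within 1.5 times the count, and 0 changed sign. Among these, the difference in GATA site share between the clusters went from 0 to -16.7 points (250 bp, 500 bp and without replicate 1) or 50.0 points (AGATAA), and that in shared positions of replicate 2 from -33.3 to 0 (250 and 500 bp). With motif windows of 400 bp the excess of GATA sites on chromosome 6 was 51.5 percentage points (Fisher's exact p = 0.0555), and over all alternatives p ran from 1.5e-04 to 0.0555. With 100 bp windows the excess on chromosome 16 was 86.8 points (Fisher's exact p = 0.0176), in a range of p from 0.0176 to 0.193. With 1 replicate at a time, the chromosome 6 interval held 6 to 7 positions in place of 4 shared regions, 7 without replicate 2. The other 5 moved values were counts of single genes: FOXQ1 went from 1 to 2 with limits of 250 and 500 bp and without either replicate, and FOXC1 from 3 to 5 without replicate 2. At 50 and 100 kb, 8 values could not be had because the chromosome 16 cluster held no position. No paired analysis was possible because the tests compare genomic intervals within the ChIP samples, and peaks of the inputs were not analysed here. The number of positions, 2 on chromosome 16, limits every comparison.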
